A study of Mus musculus with 4 samples.

Results

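Accessible chromatin was described at 9 genes of the Krüppel-like factor (KLF) family, Klf1, Klf2, Klf3, Klf4, Klf6, Klf9, Klf10, Klf11 and Klf13, in wild-type and Hemgn knockout mouse fetal liver. Members were all ATAC-seq peaks whose summit lay in the body of one of these genes, or within 100 kb where the gene had the nearest boundary of any protein-coding gene. Peaks of the 4 libraries that shared at least 1 bp were joined, which gave 71 KLF regions of 55290 regions in all. The members and the other gene lists were chosen with earlier results of these data known, by a rule that uses position and no measured difference. A nearby region is named by its nearest gene only, and no measurement here ties it to the activity of that gene.

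ATAC-seq uses a transposase to cut and tag open DNA. Per the labels, about 50000 fetal liver cells of embryonic day 14.5 went into each library, following Omni-ATAC, a protocol that lowers mitochondrial reads. There were 2 wild-type (WT) libraries and 2 libraries of Hemgn knockout (KO) mice, in which the gene for hemogen, found in nuclei of haematopoietic cells, is disrupted. The labels give no further allele, the kind of KO allele is not stated, no sort of a cell type is named, and pooling of embryos is not mentioned. Nothing says that replicates came from separate embryos, so the spread between libraries may be technical. In such mixed tissue, fewer cells with an open region and less opening per cell cannot be told apart.

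KLF proteins bind CACCC and GC-rich DNA through zinc fingers at their C-terminal end. Klf1 is the erythroid activator needed for definitive red cell formation and adult β-globin expression. Klf2, Klf4 and Klf6 belong with it to a group of factors that mainly activate transcription, Klf3 represses through the corepressor CtBP and is itself a Klf1 target in erythroid cells, and Klf9, Klf10, Klf11 and Klf13 form a group that recruits SIN3A.

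The promoters of Klf1, Klf11 and Klf4 are shown for their place in the order of the 9 boundary regions compared below. Klf1 had the lowest fold ranks and Klf4 the lowest mean summit level. Klf11 had the highest mean summit level, with a range that overlapped that of Klf13. Each window runs from 250 bases before to 50 bases after the RefSeq transcription start, 5′ to 3′ on the gene's strand, in GRCm38.p6; they are chr8:84901732-84902031 on the plus strand, chr12:24651121-24651420 on the plus strand and chr4:55532426-55532725 on the minus strand. Capitals mark every match, on either strand, to a GATA motif (AGATAA or, equally, TGATAA), the CACCC box, the KLF motif CCNCNCCC, the CCAAT box or the GC box GGGCGG. Matches to different motifs can overlap.
Klf1: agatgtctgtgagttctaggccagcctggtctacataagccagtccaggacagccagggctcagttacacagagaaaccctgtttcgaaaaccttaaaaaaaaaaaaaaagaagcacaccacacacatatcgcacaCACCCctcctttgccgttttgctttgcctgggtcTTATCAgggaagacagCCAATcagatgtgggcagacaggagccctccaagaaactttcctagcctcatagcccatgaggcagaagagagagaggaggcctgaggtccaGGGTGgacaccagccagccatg
Klf11: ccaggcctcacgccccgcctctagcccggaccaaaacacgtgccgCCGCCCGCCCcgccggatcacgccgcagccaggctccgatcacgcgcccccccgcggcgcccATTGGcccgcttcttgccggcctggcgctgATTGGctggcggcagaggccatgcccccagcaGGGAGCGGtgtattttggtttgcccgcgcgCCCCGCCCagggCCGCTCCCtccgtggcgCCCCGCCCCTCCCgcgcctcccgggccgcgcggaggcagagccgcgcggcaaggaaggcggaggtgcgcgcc
Klf4: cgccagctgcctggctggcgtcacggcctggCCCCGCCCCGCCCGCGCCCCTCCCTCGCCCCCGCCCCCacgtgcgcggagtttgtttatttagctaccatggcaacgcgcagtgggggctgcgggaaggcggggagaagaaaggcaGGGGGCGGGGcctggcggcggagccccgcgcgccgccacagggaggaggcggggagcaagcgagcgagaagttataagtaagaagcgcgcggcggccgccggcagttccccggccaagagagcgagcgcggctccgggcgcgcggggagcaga

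The Klf1 promoter was the only one of the 8 promoters found in the table (Klf10 has no entry) with a GATA match, which 15.9% of 21263 protein-coding promoters hold. That match begins at position -80 from the start, with a CCAAT match at position -64, a CACCC match at position -114 and another CACCC match at 28 after the start. It held no CCNCNCCC and no GGGCGG match, whereas 6 of the 8 promoters held each of them, against 56.6% and 46.2% of all promoters. CACCC was found in 5 of the 8 and in 59.5% of all promoters, and CCAAT in 5 of the 8 and in 38.2% of all. Its G and C content was 51.3%, the lowest of the 8, which otherwise ranged from 63.0% at Klf6 to 77.7% at Klf11; the median of all promoters was 56.3%. All 8 windows were overlapped by a peak in all 4 libraries. A match is a description of letters and shows no binding.

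Peak lists carry no library depth. The lists held 47858 and 34181 peaks in WT replicates 1 and 2, and 35426 and 43018 in KO replicates 1 and 2. MACS2, the peak caller named in the submitters' processing notes, writes a fold, the fragments at the summit over a local background with 1 added to both, and a −log10 p, from which both numbers were recovered. The most frequent background was 5.67 and 2.29 fragments in WT and 2.49 and 3.8 fragments in KO, which stands for relative depth if settings were alike. The quantities given below are the within-list percentile of fold, the within-list percentile of summit fragments, and the summit level, which is summit fragments divided by the library's most frequent background. Of the markers of the labelled tissue, 6 of the 7 erythroid genes in the gene table had a boundary peak in all 4 libraries (Gata1 had 0 libraries). So did 3 of 6 hepatocyte, 1 of 4 macrophage, 1 of 4 endothelial, 2 of 4 megakaryocyte and 0 of 4 lymphocyte markers. Among all protein-coding genes the share was 55.4%. Cd79b, a lymphocyte marker, had a boundary peak in 2 libraries, and Alb in 3; the part of other cell types in the results was not tested.

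All 9 KLF genes had a boundary region, with its summit within 1 kb of either end of the gene, that was open in all 4 libraries; where more than 1 peak lay there, the shared one is described. Each of the 9 also had a summit within 1 kb of an end in every library taken singly, as did 55.4% of all protein-coding genes. By this stricter count, 8 of 17 other KLF and SP genes had such a summit in all 4 libraries. In none was it found at 5 (Klf8, Klf17, Sp2, Sp6 and Sp9). Klf12 and Sp7 had it in 2 and 3 libraries, though each had a boundary region open in all 4. Klf15 and Sp8 had it in 3 libraries each and had no boundary region open in all 4. The boundary region with the highest mean summit level was that of Klf11, at 289 ± 38.3 times the library background (SD, n = 4 libraries), followed by Klf13 at 265 ± 21.7 and Klf10 at 253 ± 32.6, and the ranges of neighbours in this order overlapped. Klf3 came next at 181 ± 19.0, below the lowest value of Klf10, with Klf6 at 113 ± 8.98 and Klf9 at 112 ± 7.74, which overlapped each other. Klf1 stood at 67.1 ± 13.4, Klf2 at 41.4 ± 10.8, with overlapping ranges, and Klf4 at 26.6 ± 3.11, below all others. These levels are heights at 1 point and are not divided by the width of a region. The highest level of any peak was 2014 to 2676 in the 4 libraries, and the share of peaks above a level of 200 was 2.61% and 3.62% in WT and 5.46% and 1.58% in KO replicates 1 and 2, so the KO libraries lay on either side of WT at strong peaks.

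**Figure D1:**
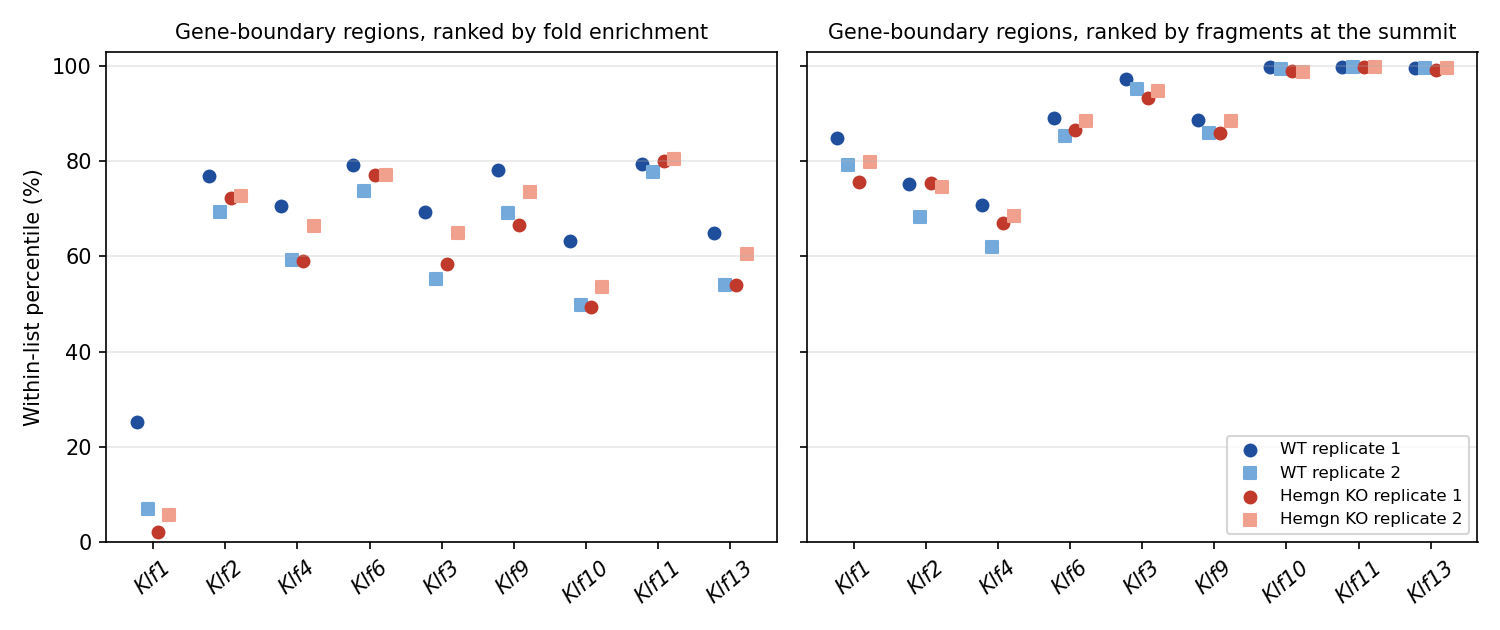
Within-list percentiles (%) of the boundary region found in all 4 libraries for each of the 9 KLF genes, ranked by fold enrichment (left) and by summit fragments (right); each point is 1 library, blue for WT and red for Hemgn KO. The Klf1 region lies between the 2.29 and 25.3 percentile by fold but between the 75.6 and 84.8 percentile by fragments.

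Klf1 had 2 regions, both open in all 4 libraries. The region over its promoter (chr8:84900895-84902179) had within-list percentiles of fold of 25.3 and 7.05 in WT and 2.29 and 5.75 in KO, the lowest of the 9 shared boundary regions. By summit fragments the same region stood at the 84.8 and 79.2 percentile in WT and at 75.6 and 79.8 in KO. The local background by which its fold was divided was 18.8 to 23.2 times the library background, higher than at 98.2% of the 27473 regions open in all libraries. The difference between its fragment and fold percentiles was larger than at 99.6% of them. The region inside the gene, 1.32 kb after the start (chr8:84902575-84903613), ranked at 69.3 and 59.4 in WT and 72.1 and 73.8 in KO by fold, and between 95.4 and 97.2 by fragments in all 4 libraries.

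The summit level of the Klf1 promoter was lower in both KO libraries than in both WT libraries. It was 79.5 and 77.7 times background in WT and 57.8 and 53.4 in KO, a mean of 78.6 ± 1.28 against 55.6 ± 3.12 (SD, n = 2 each). The log2 difference of KO from WT was -0.50 ± 0.17 (SE), which did not pass limma's test over 27473 regions (Benjamini-Hochberg adjusted p = 0.0814). This SE, like that of every log2 difference below, rests on the spread pooled over regions. With 1 library left out, the log2 difference ranged from -0.56 to -0.44. No p-value is given for such a fit, because a lone library shows no spread of its genotype. The summit lay inside the printed window in 3 libraries and upstream of it in KO replicate 2. Inside the gene, WT levels of 197 and 189 and KO levels of 219 and 178 overlapped (log2 difference 0.03 ± 0.21, limma adjusted p = 0.994). The 3 genes whose strongest boundary peak had the fold percentiles nearest to Klf1, over 4 libraries and 12065 genes, were Set, Grin2c and Trp53, at distances of 3.75, 3.77 and 4.16 percentile points.

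Klf2, which acts in endothelial cells, lymphocytes and primitive red cells, had 3 regions. Its start region (chr8:72318673-72320162) had levels of 34.7 and 38.0 in WT and 57.4 and 35.5 in KO. KO replicate 1 alone was high, so the groups overlapped (log2 difference 0.31 ± 0.18, limma adjusted p = 0.460). A region 23.1 kb upstream was open in all 4 libraries at levels of 4.74 to 6.55, and 1 at 15.1 kb upstream was found in WT replicate 2 only.

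Klf4, known for its part in pluripotency and monocyte differentiation, had 6 regions, 4 of them open in all libraries. Its highest fold rank was not at its start but 17.4 kb downstream of it (chr4:55514776-55515347), at the 98.2 and 86.1 percentile in WT and 93.8 and 88.8 in KO, the highest fold percentiles in the family in WT replicate 1 and KO replicate 1. By fragments this region stood lower, between 55.3 and 70.8, with levels of 25.0 and 19.2 in WT and 23.7 and 16.8 in KO, which overlapped. The start region (chr4:55532143-55533204) had levels of 25.2 and 26.6 in WT and 30.9 and 23.7 in KO. A region inside the gene (chr4:55530149-55530941) had levels of 9.35 and 10.04 in WT and 16.9 and 12.6 in KO, and both KO libraries were above both WT libraries. Its log2 difference of 0.59 ± 0.26 did not pass (limma adjusted p = 0.224). A further boundary region (chr4:55531436-55531740) was found in KO replicate 2 only, at the 1.93 percentile of fold.

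Klf6, a broadly expressed and rapidly induced factor, had 7 regions, none with a median summit inside the gene. Its start region (chr13:5860589-5862499) had levels of 111.6 and 111.8 in WT and 125 and 103 in KO (log2 difference 0.02 ± 0.18, limma adjusted p = 0.996). There were 3 regions open in both WT libraries and KO replicate 2 with no peak in KO replicate 1: the region by the far end of the gene (chr13:5870463-5870924), with fold percentiles of 49.4 and 23.9 in WT and 39.1 in KO replicate 2, and regions at -58.5 and -57.7 kb from the start. In WT replicate 2 their summits held 12 to 14 fragments, at a library background of 2.29 fragments against 2.49 in KO replicate 1; the part of depth was not tested. In all, 5 of the 71 KLF regions (7.04%) had this pattern, against 4.85% of all regions.

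Klf3 had 7 regions, 5 of them open in all libraries. Its start region (chr5:64802534-64804476), whose summits also lie in the overlapping gene Gm38457, had levels of 197 and 186 in WT and 186 and 153 in KO (log2 difference -0.18 ± 0.21, limma adjusted p = 0.849). A region 8.28 kb inside the gene (chr5:64810897-64813055) had levels of 76.9 and 80.3 in WT and 55.8 and 63.7 in KO, lower in both KO libraries. Its fold percentiles of 55.7 and 43.7 in WT and 44.4 and 56.7 in KO overlapped, as did its fragment percentiles. Its log2 difference of -0.40 ± 0.17 did not pass (limma adjusted p = 0.217). Of 4 regions between 58.3 and 74.6 kb downstream of the start, 2 were open in all libraries, and 1 (chr5:64866598-64866919) had a peak in each WT library and in no KO library, with fold percentiles of 30.9 and 2.73.

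Klf9, a gene induced by glucocorticoids and thyroid hormone, had 4 regions, 3 of them open in all libraries. Its start region (chr19:23140662-23142500) had levels of 109 and 116 in WT and 120.5 and 103 in KO, with a log2 difference of -0.01 ± 0.18 (limma adjusted p = 0.998). The 10.6 kb intragenic region (chr19:23151491-23153137) had levels of 17.6 and 17.5 in WT and 20.5 and 22.6 in KO, higher in both KO libraries but not past the test (limma adjusted p = 0.662). Its fold percentiles of 63.2 and 43.4 in WT and 51.7 and 52.7 in KO overlapped, as did its fragment percentiles. A region at -5.14 kb from the start had levels of 25.6 and 27.9 in WT and 37.8 and 26.3 in KO.

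Klf10 and Klf11, the TGF-β-inducible early genes, had 8 and 6 regions. At Klf10, 2 adjacent regions at and inside the gene were among the tallest of the family. The boundary region (chr15:38300511-38301975) had levels of 273 and 259 in WT and 274 and 205 in KO, and that inside the gene (chr15:38298946-38300183) 260.3 and 236 in WT and 253 and 199.7 in KO. Both stood at the 98.2 to 99.7 percentile by fragments but at 44.0 to 63.3 by fold, at a local background 35.3 to 47.0 times that of the library. The highest-ranked region of Klf10 lay 84.0 kb away (chr15:38384206-38385281), with fold percentiles of 93.3 and 92.2 in WT and 93.3 and 92.8 in KO. A weaker region 91.0 kb away (chr15:38391515-38392507) had levels of 7.94 and 6.99 in WT and 4.82 and 4.74 in KO, lower in both KO libraries. These levels rest on few fragments, 45 and 16 at the summit in WT and 12 and 18 in KO. The log2 difference of -0.64 ± 0.29 did not pass (limma adjusted p = 0.234). At Klf11, the start region (chr12:24650722-24652399) had levels of 271 and 289 in WT and 342 and 253 in KO; its fragment percentiles ran from 99.7 to 99.9. By fold it stood at 79.3 and 77.8 in WT and at 80.0 and 80.5 in KO, higher in both KO libraries, while the levels overlapped. The 2 regions at -6.98 and -5.30 kb from the Klf11 start were open in all 4 libraries, and 3 others inside the gene in 1 library each.

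**Figure D2:**
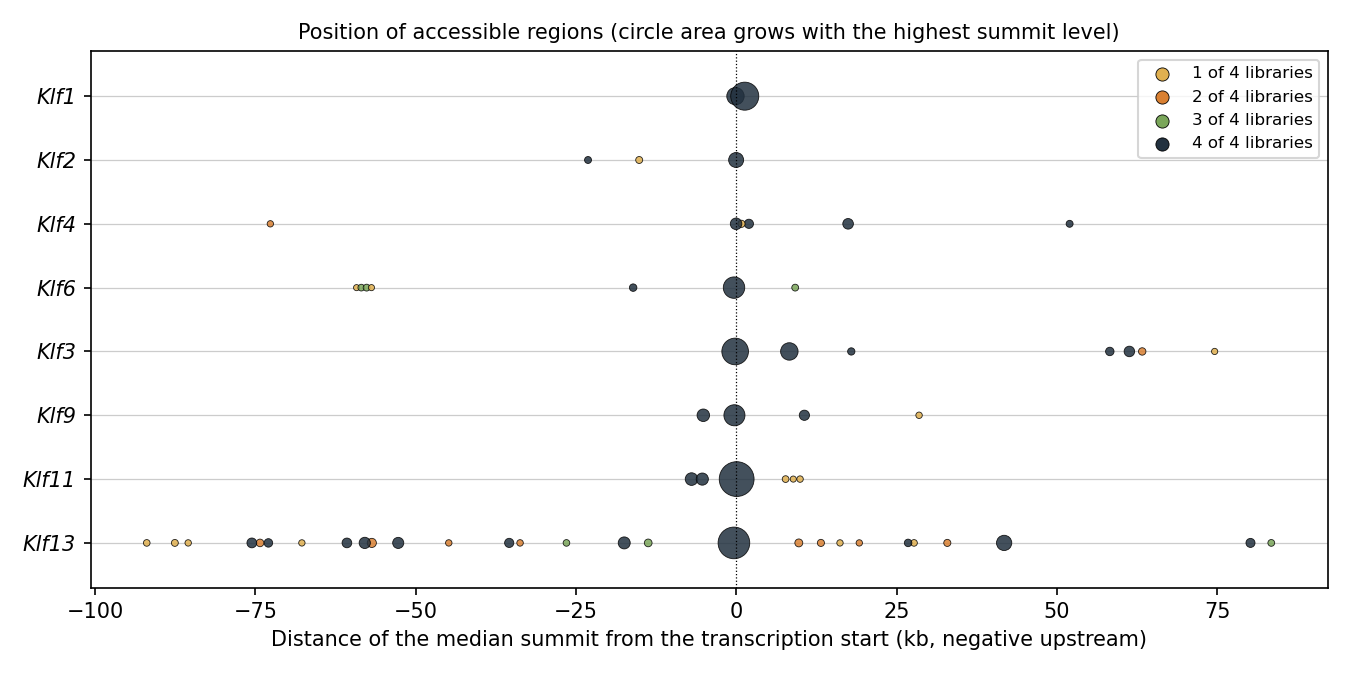
Distance (kb) of each region's median summit from the transcription start, for the 8 genes with a promoter entry; colour gives the number of libraries with a peak and circle area grows with the highest summit level. Klf13 regions spread from 92.0 kb upstream to 83.5 kb downstream of the start, while both Klf1 regions lie within 1.32 kb.

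Klf13, which in human cells can activate γ-globin reporters, held 28 of the 71 regions. By nearest boundary alone it had 21 regions, more than 99.6% of the 21774 protein-coding genes, whose median was 1. These counts were not divided by the length of the stretch assigned to each gene, so they give no density. Of the 28, 11 were open in all libraries, 8 lay inside the gene and 1 of these also in the gene E030018B13Rik. The start region (chr7:63937239-63939893) had levels of 262 and 281 in WT and 281 and 235 in KO (limma adjusted p = 0.985). The region with the highest fold rank lay inside the gene, 41.8 kb after the start (chr7:63896530-63897632), with fold percentiles of 88.7 and 86.1 in WT and 84.9 and 91.5 in KO. Its levels were 46.9 and 45.0 in WT against 54.2 and 59.7 in KO, which did not overlap but did not pass the test (log2 difference 0.31 ± 0.18, limma adjusted p = 0.442).

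The only KLF region that passed the test lay 17.5 kb upstream of Klf13 (chr7:63955771-63956833), where accessibility was lower in KO. Its WT levels stood at 34.0 and 26.6 and its KO levels at 14.1 and 22.4, and both KO libraries were below both WT libraries. The WT mean was 30.3 ± 5.23 and the KO mean 18.2 ± 5.88 (SD, n = 2 each), a log2 difference of -0.76 ± 0.22 (limma, Benjamini-Hochberg adjusted p = 0.0180). The SE and p-value rest on the spread pooled over all shared regions. Libraries of the same genotype lay further apart at this region than that spread, so the call depends on the pooling. The call was lost with replicate number as a block (limma adjusted p = 0.0525). With 1 library left out, the log2 difference was -0.43 without KO replicate 1, the lowest library, and -1.10 without KO replicate 2. It was -0.59 and -0.94 with WT replicate 1 or 2 left out, so its size rested on single libraries. By fold percentile the region stood at 75.1 and 62.6 in WT and 43.9 and 62.5 in KO. By fragment percentile it stood at 74.9 and 62.0 in WT and 50.7 and 67.4 in KO, so the genotypes overlapped. A region 60.7 kb upstream (chr7:63999388-63999915) had levels of 14.5 and 19.7 in WT and 10.8 and 9.21 in KO (log2 difference -0.75 ± 0.26, limma adjusted p = 0.0689). The region at -58.0 kb had levels of 29.1 and 25.8 in WT and 18.5 and 23.7 in KO (limma adjusted p = 0.404). Levels at -52.7 kb were 22.0 and 19.2 for WT and 28.1 and 25.5 for KO, and at -73.0 kb 9.52 and 10.04 for WT and 12.9 and 13.4 for KO. Neither passed the test (limma adjusted p = 0.427 and 0.505), and at both the fold and the fragment percentiles overlapped between genotypes. Differences between the upstream regions were not tested.

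**Figure D3:**
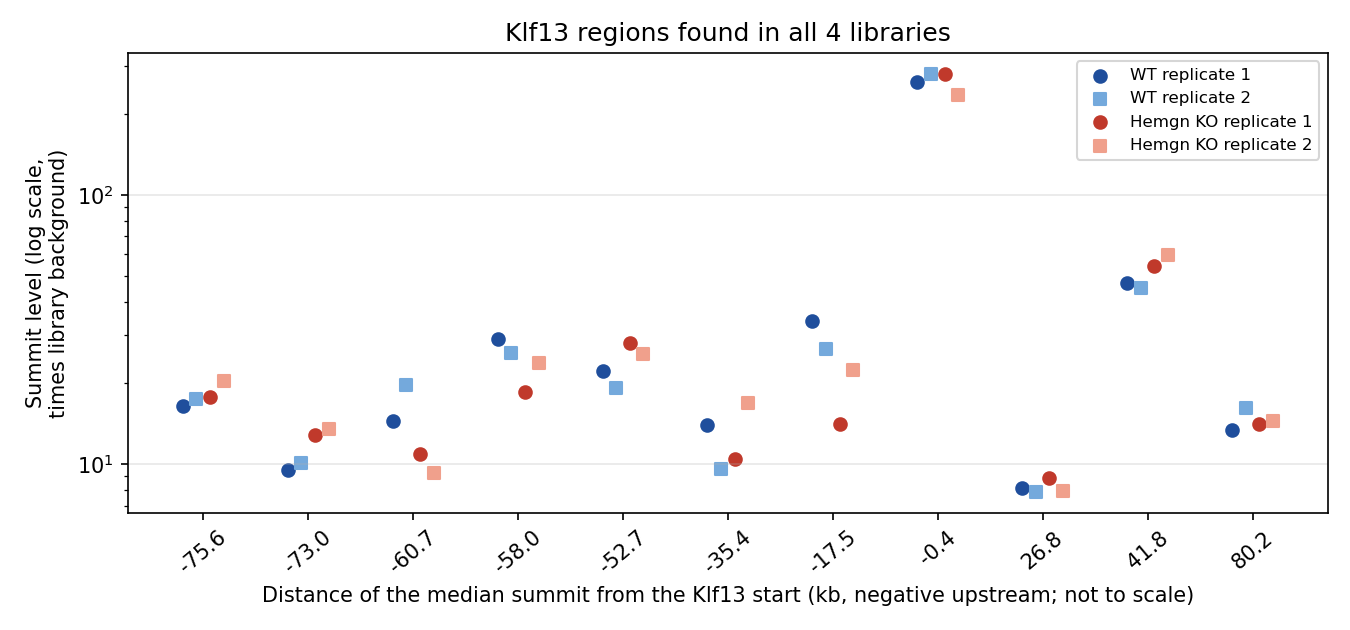
Summit level (times library background, log scale) in each of the 4 libraries at the 11 Klf13 regions open in all of them, ordered by distance (kb) from the start and not spaced to scale. At -17.5 kb the KO points (14.1 and 22.4) lie below the WT points (34.0 and 26.6), and at -0.4 kb the start region stands at 235 to 281.

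Over the whole family, presence of a peak was close to that of all regions. Of 71 regions, 38 (53.5%) were open in all 4 libraries, against 49.7% of all regions, and 27 of 43 (62.8%) without Klf13. In the 17 other KLF and SP genes the count was 40 of 76 (52.6%). WT-only regions, with a peak in both WT libraries and no KO library, numbered 2 of 71 (2.82%), at Klf3 as above and 74.3 kb upstream of Klf13 (chr7:64013131-64013490, fold percentiles of 10.8 or less), against 2.2% of all regions. The only KO-only region, inside Klf13 (chr7:63925462-63925945), had fold percentiles of 1.97 and 14.0, and the share of 1.41% was that of all regions, 1.41%. The libraries with the most peaks, WT replicate 1 and KO replicate 2, shared 7 regions (9.86%) that both others lacked, against 7.22% of all regions, 5 of them at Klf13. Regions in 1 library numbered 16 (22.5%, against 25% of all regions). WT replicate 1 held 8, KO replicate 2 held 7, WT replicate 2 held 1 and KO replicate 1 held 0. Over all regions, these libraries in the same order held 51.8%, 28.4%, 7.45% and 12.3% of the single-library regions. The median fold percentile of the 16 KLF regions was 13.6, and that of the 38 shared regions was 63.3, each by the highest library.

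**Figure D4:**
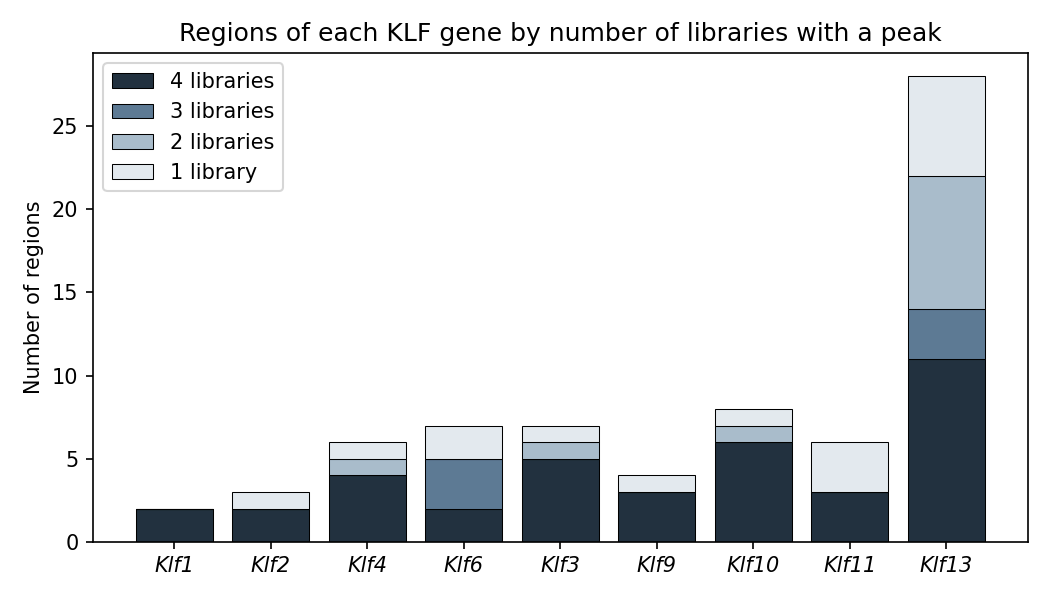
Number of regions of each KLF gene, split by how many of the 4 libraries had a peak there. Klf13 has 28 regions, 11 of them in all 4 libraries, and both Klf1 regions are in all 4.

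The number of KLF regions with a peak did not differ between genotypes beyond the spread of the libraries. It was 61 and 47 in WT and 40 and 60 in KO, a mean of 54 ± 9.90 against 50 ± 14.1 (SD, n = 2 each; exact two-sided permutation p = 0.667). Per 1000 peaks of the list it was 1.27 and 1.38 in WT and 1.13 and 1.39 in KO (exact permutation p = 1). The 6 ways to relabel 4 libraries cannot give a p below 0.333. The median fold percentile of the 38 shared KLF regions was 63.3 and 50.5 in WT and 50.6 and 58.6 in KO, a KO minus WT difference of -2.32 percentile points (exact permutation p = 1), and the corresponding medians over all shared regions were 70.9, 59.5, 61.1 and 67.7. By summit level the KLF medians stood at 25.1 and 22.7 for WT and at 22.3 and 23.7 for KO, against 23.6, 22.3, 21.7 and 22.1 for all shared regions. Ranks of lists of different length show no change by themselves. Of the 9 genes, Klf3 reached an exact permutation p of 0.333 in the number of regions with a peak, at 7 and 6 in WT and 5 in each KO library. Klf2 reached it in the median fold percentile, at 57.8 and 51.5 in WT and 50.7 and 50.5 in KO. Relabelling alone gives so large a difference with a probability of 0.333, and the share of all genes that reach it was not counted. The Klf2 median rested on 2 regions, and fold percentiles overlapped at its start region (76.8 and 69.4 in WT, 72.3 and 72.6 in KO).

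Region by region, 1 of the 38 shared KLF regions passed limma's test, and it was lower in KO. Over all 27473 shared regions limma called 3.79%, with 274 higher (0.997%) and 768 lower (2.8%) in KO; with the median of shared regions set equal in all libraries it called 324 higher (1.18%) and 458 lower (1.67%), and again 1 KLF region. At 6 KLF regions (15.8%) the unadjusted limma p was under 0.05, as at 14.6% of all shared regions. The KO levels lay above both WT levels at 6 of the 38 regions (15.8%; 16.6% of all shared regions) and below both at 8 (21.1%; 23.7% of all). By fold percentile the counts were 3 (7.89%; 9.97% of all) and 6 (15.8%; 13.6% of all), and by fragment percentile 2 (5.26%; 6.71% of all) and 6 (15.8%; 6.62% of all).

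**Figure D5:**
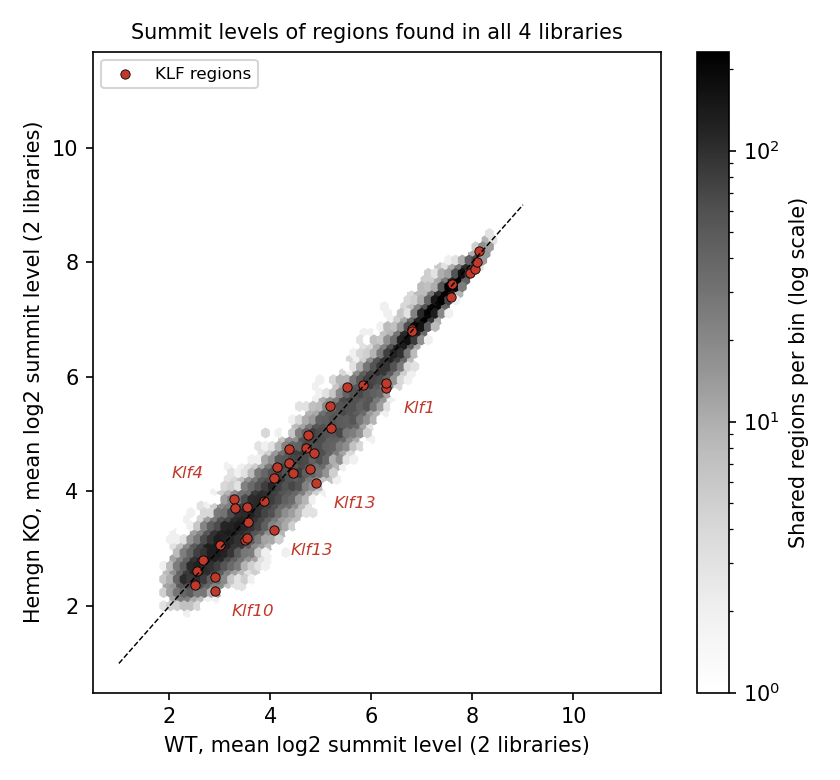
Mean log2 summit level over 2 Hemgn KO libraries against that over 2 WT libraries; grey hexagons count the 27473 regions open in all 4 libraries, red points are the 38 KLF regions and the dashed line marks equality. The KLF points lie along the line; the labelled points below it are the Klf1 promoter, 2 Klf13 regions and 1 Klf10 region, and the one above it is a Klf4 region.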

How the data were processed

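The deposited files were 4 peak lists in the MACS2 narrowPeak layout, 1 per library. The tools named in the submitters' processing notes are MACS2 2.2.7.1, Picard 2.21.4, SAMtools 1.9 and Bowtie2 2.3.5; no source used here gives their settings or the genome build. The deposited fold is the authors' ratio of summit fragments to local background, and each peak's deposited −log10 p and −log10 q also come from the authors; the deposited score is 10 times the −log10 q without decimals. Peak names carry other replicate numbers than the labels, which were followed.

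Members and lists were chosen with earlier results of these data known. Peaks on 21 chromosomes were merged at 1 bp of overlap and placed on 21774 protein-coding genes of RefSeq GRCm38.p6. Promoter windows of that table held a summit in 22.8% to 26.9% of cases, against 0.673% to 1.31% after shifts of 5, 20 and 50 kb. Region coordinates were taken from the lists and are 1-based. Whole fragments and background were solved from fold and −log10 p for 100% of peaks (tolerance 0.001, or 0.001 per 100 of −log10 p where larger). Log2 summit levels of shared regions were compared with limma 3.58.1 in R 4.3.3, with a trend of the spread on level and Benjamini-Hochberg adjustment; summit levels, fragment percentiles and limma were chosen after the data were seen. Limma's fit had 2 residual degrees of freedom, and its prior degrees of freedom were infinite, so the spread was wholly that pooled over regions; the script was tested on data simulated with that same spread, which does not bear on real differences in spread between regions. Library values were compared by exact permutation in Python 3.11.15. Regions named are those at gene boundaries, the one of each gene whose lowest fold percentile was highest, exclusive ones, the 3 with the largest non-overlapping percentile difference in each direction, and others chosen after their values were seen.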

Additional observations from a re-analysis of the deposited data

How the results depend on the processing

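Of 16 KLF regions in 1 library, 15 were in the 2 longest lists. Over all regions, those lists held 51.8% (WT replicate 1) and 28.4% (KO replicate 2) of the single-library regions. The part of depth was not tested. The KO minus WT difference in KLF regions per library was -4 and ranged from -14 to 6 when 1 library was left out. WT-only KLF regions then numbered 2 to 10 and KO-only 1 to 8; WT-only regions were 1 at a fold of at least 6 and 1 within 50 kb, and KO-only regions 0 in lists cut to equal length (by fold, by q) or with a minimum fold of 6. The family's median percentile difference was -2.32, turned to 0.0181 by −log10 q, and ranged from -10.2 to 4.05 without 1 library.

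Single genes also turned sign. Klf1 went from -1.76 to 10.9 in lists of equal length by fold, 3.33 by q, 15.5 at a fold of at least 6 and 8.61 with a gap of 500 bp. Klf4 went from 0.89 to -1.45 in lists of equal length by fold, -5.65 at a fold of at least 6 and -2.26 with the gap. Klf11 went from -2.91 to 0.50 in lists of equal length by fold, Klf6 from 0.43 to -0.72 at a fold of at least 6, and Klf9 from -1.06 to 5.72 by −log10 q and 3.11 by fragments. Without 1 library, Klf1 ranged from -8.78 to 5.25, Klf3 from -5.27 to 6.96, Klf4 from -10.7 to 12.4, Klf6 from -6.09 to 6.45, Klf9 from -11.0 to 8.86, Klf10 from -12.8 to 0.56, Klf11 from -6.26 to 0.44 and Klf13 from -6.58 to 10.2. Each of these exact tests had p of at least 0.333. Some settings changed which regions entered the median of a gene. At a fold of at least 6 the Klf1 promoter, with folds of 2.66 to 3.58, was dropped. The gap of 500 bp joined the 2 Klf1 regions, and 8.61 was the difference of the region inside the gene. At Klf4 the gap joined the start region to its neighbours, and -2.26 was the difference of the start region. The cause of the other changes was not tested.

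Limma, an addition made after seeing the data like all its settings, called 1042 regions, 660 with the replicate block and 66 to 3373 without 1 library, where the other genotype supplies the spread; KLF calls were 1, 2 without the trend, 0 with the replicate block and 0 to 5 without 1 library. The region 17.5 kb upstream of Klf13 had a limma adjusted p of 0.0525 with the block, and that 60.7 kb upstream 0.0392 without the trend. Deviations of same-numbered libraries correlated at -0.175 across regions. The longest lists were those of WT replicate 1 and KO replicate 2, which carry different numbers. This correlation therefore cannot decide whether replicate numbers pair the libraries. Crossed numbers gave 1600 and 2 calls. In the exact tests the replicate block cannot change a difference of means (-4 and -2.32) in this balanced design, and with 4 relabelings its smallest p is 0.5.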
